A study of Mus musculus with 16 samples.

Results

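The genes described here encode the proteins of the cytosolic ribosome, and their mRNA was read by RNA-Seq from the thyroid glands of mice with or without Glis3 in the thyroid and fed a normal diet (ND) or a low iodine diet (LID). They were chosen by symbol: every entry of the gene count table whose symbol begins with Rpl, Rps or Rplp followed by a digit, leaving out symbols with a hyphen (pseudogenes and antisense names) and the Rps6k kinases. This gave 88 of 25611 entries, of which 84 had enough counts to be tested among 16630 genes tested in all. By class, 30 were proteins of the small subunit, 43 of the large subunit, 3 of the P-stalk, and 9 were paralogs of such proteins. The symbol Rps19bp1 also matched, although its product is a protein that binds Rps19, and Rpl32l and Rpl37rt were in no list.

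Cytosolic ribosomes are built from a small subunit, which reads the mRNA, and a large subunit, which joins the amino acids. The genes of their proteins are transcribed at high and similar rates in growing cells, because each mature ribosome holds about equal numbers of most of its proteins. Many of their mRNAs start with a run of pyrimidines, the terminal oligopyrimidine (TOP) tract, through which the kinase mTOR controls their translation, and Rps6 is the ribosomal protein that the S6 kinases phosphorylate downstream of mTOR. In the thyroid gland, TSH drives growth of the follicular cells, and a low iodine diet raises TSH.

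The 16 libraries fell into 4 groups of 4 mice, all aged 1 month and labelled C57BL/6, and all weaned at 3 weeks. WT(ND) and WT(LID) mice carried no conditional deletion, whereas both Glis3-Pax8Cre groups carried the Glis3 tm2Amj allele with the Pax8 tm1.1(cre)Mbu allele, in which Cre is driven from the Pax8 locus and removes exon 5 of Glis3 in Pax8-expressing cells. ND was the NIH-31 diet and LID was TD.95125. Whole glands were used, so cells other than follicular cells contributed RNA, and fewer cells of a type could not be told apart from less RNA per cell. The labels number the samples of each group without saying how each number was given, and the p-values measure the spread between these samples.

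Library totals ran from 13892352 to 461077969 counts. Counts of the whole Glis3 gene did not check the deletion, since only 1 exon is removed: they were 45.2 to 85.8 CPM, the count scaled to a common library size, in WT(ND) and 85.8 to 104.8 in Glis3-Pax8Cre(ND). Slc5a5, the iodide transporter, separated the groups as 81.8 to 186.9 CPM in WT(ND), 1898 to 2178 in WT(LID) and 8.43 to 20.2 in the 8 Glis3-Pax8Cre mice. One library went against its label on another marker: WT(ND) mouse 3 had 996 CPM of Pax8, against 280 to 397 in the other 7 WT mice and 643 to 989 in the Glis3-Pax8Cre mice, and its Slc5a5 was the lowest of WT(ND). The share of all counts and the main numbers of genes called that rest on the library labelled WT(ND) mouse 3 are therefore given with and without it. Other values, such as the splits by subunit, the overlaps and the shares without Tg, are given only with it. Rag1, a thymocyte gene, exceeded 5 CPM in 5 libraries, and Acta1, of skeletal muscle, ranged from 0.210 to 569.6 CPM.

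Promoter sequences from RefSeq (GRCm38.p6) were found for 67 of the 88 genes. A run of at least 8 pyrimidines within 25 bases of the start was present in 34 of the 67 (50.7%), against 22.3% of all 27025 genes with a promoter entry. Such a run need not lie at the first base of the mRNA, so this is not a count of mRNAs with a TOP tract. The following windows run from 60 bases before the start to 20 after it, with the longest run of C and T near the start in capitals. They are shown because Rps6, Rpl4, Rpl27a and Rpl5 hold the pyrimidine run, Rpl22l1 holds it in a paralog, and Rpl23, which lacks a run of this length, had a log2 fold change of 0.79 in Glis3-Pax8Cre(LID) against WT(LID).
Rps6, chr4:86857348-86857427, minus strand: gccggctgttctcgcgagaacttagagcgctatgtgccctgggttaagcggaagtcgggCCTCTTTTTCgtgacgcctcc
Rpl4, chr9:64173327-64173406, plus strand: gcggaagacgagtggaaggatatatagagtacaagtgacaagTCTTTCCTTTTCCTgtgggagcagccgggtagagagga
Rpl27a, chr7:109519135-109519214, plus strand: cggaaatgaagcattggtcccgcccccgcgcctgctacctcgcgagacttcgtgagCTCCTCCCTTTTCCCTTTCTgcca
Rpl5, chr5:107900468-107900547, plus strand: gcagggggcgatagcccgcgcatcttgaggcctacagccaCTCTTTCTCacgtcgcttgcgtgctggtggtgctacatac
Rpl22l1, chr3:28805448-28805527, plus strand: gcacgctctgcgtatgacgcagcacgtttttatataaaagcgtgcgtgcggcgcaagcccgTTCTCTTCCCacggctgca
Rpl23, chr11:97782420-97782499, minus strand: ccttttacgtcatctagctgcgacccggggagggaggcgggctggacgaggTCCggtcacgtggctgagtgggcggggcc

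Other motifs were searched on both strands of the 300 bases from 250 before to 50 after the start. The ETS core CCGGAAG was found in 37.3% of the 67 genes and in 9.93% of all genes with a promoter entry. The Sp1 box GGGCGG was found in 59.7% and 38.2%, and the YY1 motif AAGATGG in 14.9% and 7.28%. The E-box CACGTG (8.96% and 8.09%) and the TATA box TATAAA (11.9% and 15.7%) were about as frequent as in all genes with a promoter entry. The GLIS core TGGGGGGT was found in 0 of the 67 genes and in 1.79% of all genes with a promoter entry, which says only that these letters were not in the bases searched.

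The 88 genes took up 1.97% ± 0.214 (SD, n = 4) of all counts in WT(ND) mice. The share was 2.31% ± 0.183 for Glis3-Pax8Cre(ND), 1.504% ± 0.164 for WT(LID) and 2.55% ± 0.388 for Glis3-Pax8Cre(LID). The lowest Glis3-Pax8Cre(LID) mouse, at 2.07%, lay above the highest WT(LID) mouse, at 1.65%, so that the 2 LID groups did not overlap. Without the library labelled WT(ND) mouse 3 the share in WT(ND) was 1.88% ± 0.135 (SD, n = 3). Thyroglobulin (Tg), the hormone precursor, took up 7.87% to 29.3% of counts and was lower in Glis3-Pax8Cre mice, so the shares were also taken without it: 2.64%, 2.74%, 1.95% and 2.85% in the same order. The 2 ND groups overlapped with and without Tg, and without Tg the LID groups were still apart, as 1.78% to 2.05% in WT(LID) and 2.39% to 3.26% in Glis3-Pax8Cre(LID).

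**Figure D1:**
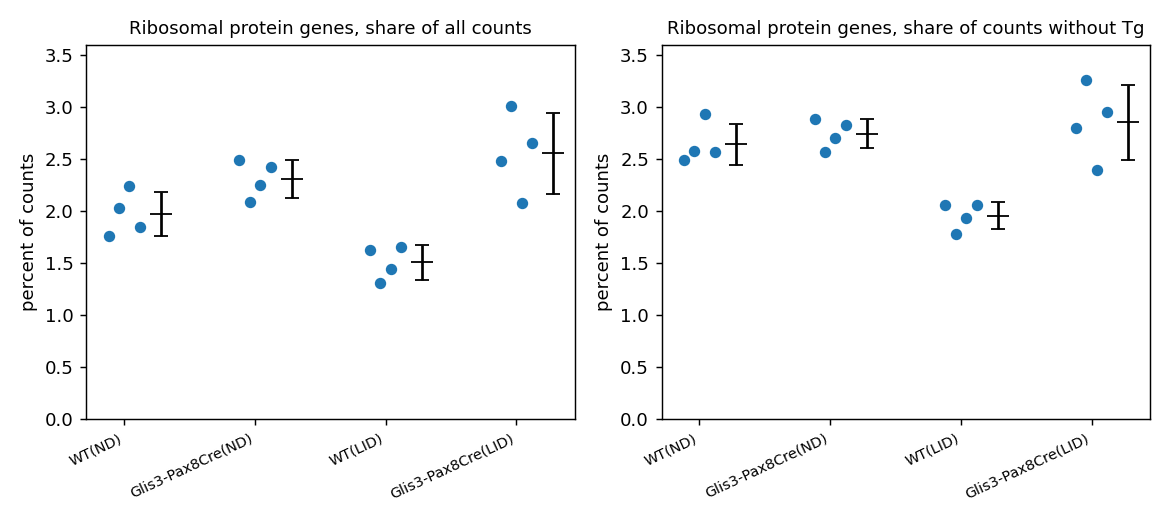
Share of counts on the 88 ribosomal protein genes in each mouse (points; y axis, percent of counts), of all counts on the left and of counts without Tg on the right, with the mean and SD of the 4 mice of a group beside them. WT(LID) is the lowest group in both panels, and its mice, at 1.30% to 1.65% of all counts, lie below every Glis3-Pax8Cre(LID) mouse.

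Most of the genes were abundant. Of the 76 proteins of the subunits and stalk, 72 had over 10 CPM, with levels per kb of gene model from 47.8 to 940 CPM and a median of 302. The lowest of these per kb, Rps15a, had 247 CPM and a long gene model of 5179 bases. Among those with the highest level per kb were Rplp1 (940 CPM per kb), Rps14 (787), Rpl41 (782), Rpl10 (763), Rplp0 (654), Rps24 (631), Rps9 (569), Rps15 (549) and Rpl7 (522). The median was 357 CPM per kb for the small subunit and 275 for the large subunit. Within a group, the coefficient of variation between mice was 5.68% for Rpl4 and up to 15.4% for Rpl41.

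**Figure D2:**
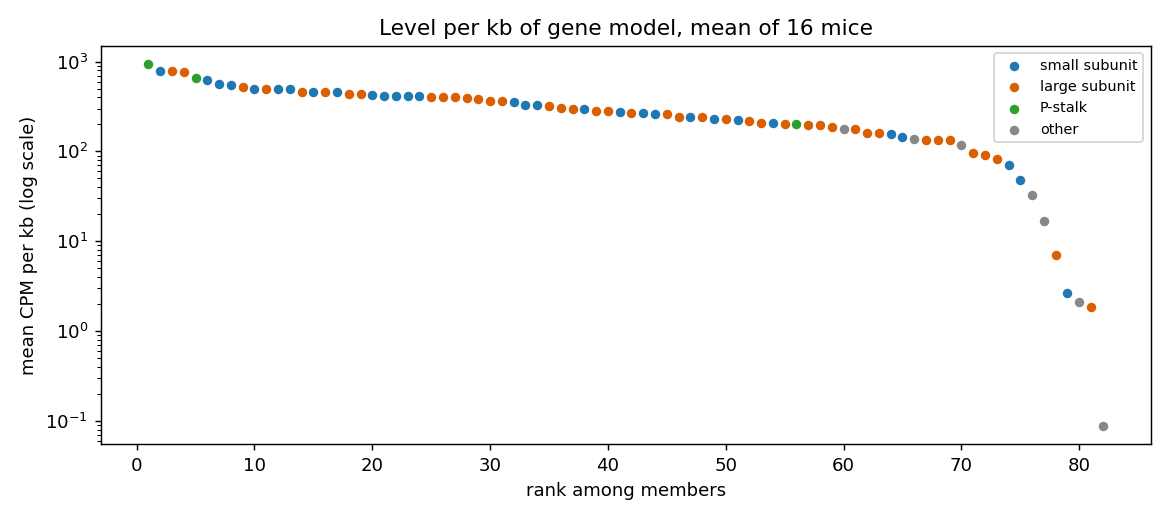
Mean level of each gene over 16 mice, in CPM per kb of gene model on a log scale, against its rank. Levels fall slowly from Rplp1 at 940 CPM per kb to Rps15a at 47.8, and steeply for the genes of lower rank. The rank depends on model length, which is 5179 bases for Rps15a.

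Several near-empty entries could not be read as low expression. Rpl26 had 0 counts in all 16 libraries and its model overlaps that of Gm15772 on the same strand. Rps27 (highest count 453) shares its span on the minus strand with Rps27rt (0 counts), Rpl30 (highest 478) overlaps Gm12191, and Rpl34 (highest 1339) overlaps Rpl34-ps1. Rpl10l, a paralog of Rpl10, also had 0 counts, which allows at most 0.00651 to 0.216 CPM per library (3 counts, counting error only). Transcripts of the 85 genes for which a transcript sequence was found shared a median of 54.3% of their stretches of 31 bases with other gene models (0% to 98.7%). Reads of a gene and of its copies could therefore not always be separated.

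Loss of Glis3 under LID went with higher ribosomal protein mRNA in nearly every gene. In Glis3-Pax8Cre(LID) against WT(LID), 75 of 84 were called higher (edgeR quasi-likelihood test, adjusted p under 0.05), against 14.9% of all genes, and 1 was called lower, against 15.4%. Their median log2 fold change was 0.64 (1.56-fold), where the median of all genes was 0.01, and the quartiles were 0.56 and 0.71. In 77 of 84 genes every Glis3-Pax8Cre(LID) mouse lay above every WT(LID) mouse, against 17.7% of all genes. The changes were small: at adjusted p under 0.01 and more than 2-fold, 0 of 84 were called.

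The small subunit rose in 29 of 30 genes (median 0.68) and the large subunit in 39 of 42 tested (median 0.61). Rps6, the target of the S6 kinases, had 162, 150, 154 and 171 CPM in WT(LID) and 281, 310, 255.6 and 300.3 in Glis3-Pax8Cre(LID). No mouse overlapped, and the log2 fold change was 0.85 ± 0.09 (SE; adjusted p = 4.89e-06). Rpl36a of the large subunit had the largest change, 0.90 ± 0.12 (adjusted p = 4.60e-05), from 83.9 ± 7.81 to 156 ± 24.7 CPM (SD, n = 4). Rpl37a (0.81), Rpl23a (0.80) and Rpl23 (0.79) followed.

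The P-stalk, through which translation factors reach the ribosome, rose as a whole: Rplp0 by 0.70 ± 0.10 (adjusted p = 6.45e-05), Rplp2 by 0.64 ± 0.12 (6.01e-04) and Rplp1 by 0.59 ± 0.12 (0.00141). Rplp0 had 678 ± 48.3 CPM in WT(LID), compared with 1103 ± 109 in Glis3-Pax8Cre(LID) (SD, n = 4). Rpl5 and Rpl11, which join an rRNA in a particle that also binds Mdm2, rose by 0.74 ± 0.09 (adjusted p = 1.56e-05) and 0.58 ± 0.09 (2.21e-04). Rpl11 had 282, 228, 243 and 266 CPM in WT(LID) and 359, 433, 331 and 401 in Glis3-Pax8Cre(LID).

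**Figure D3:**
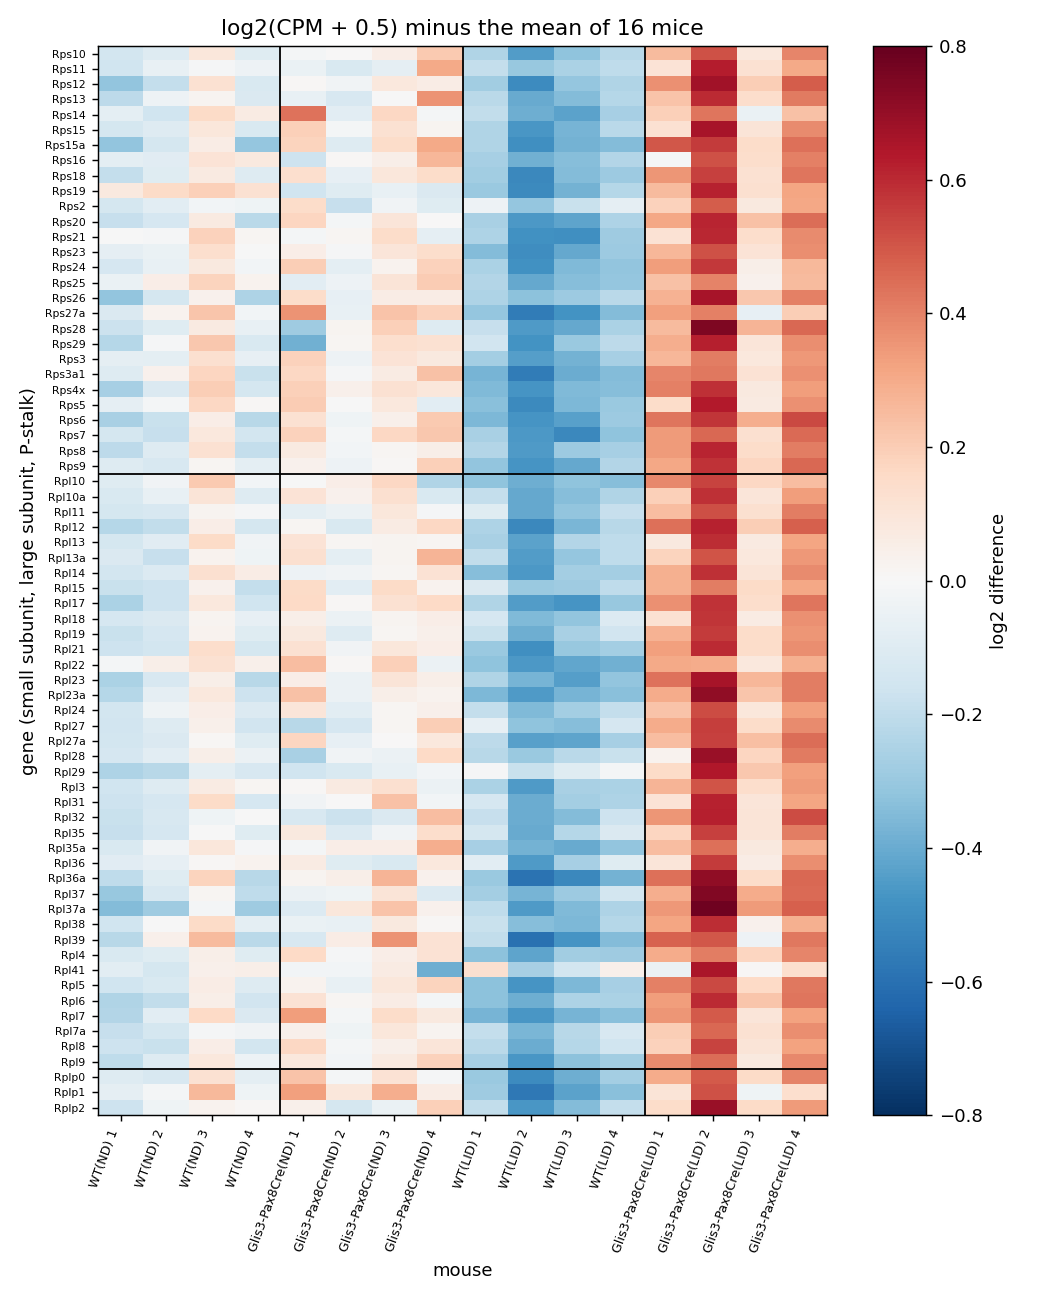
Level of the abundant subunit and stalk genes in each of 16 mice, as log2(CPM + 0.5) minus the mean of all mice (colour, log2 difference), with rows by subunit and lines between groups. The 4 WT(LID) columns are low in nearly all rows. The 4 Glis3-Pax8Cre(LID) columns are high in most rows, mouse 2 most of all and mouse 3 least, with some rows of mouse 3 near or below the mean. Genes not reported here are left out.

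The paralogs did not all follow. Rpl22l1, a paralog of Rpl22, rose by 0.72 ± 0.13 (adjusted p = 7.07e-04) and Rpl22 itself by 0.64 ± 0.08 (2.05e-05). Rpl36al rose by 0.34 ± 0.11 (adjusted p = 0.0266), a call lost in 7 of 28 alternatives, which left out WT(LID) mouse 2, 3 or 4, Glis3-Pax8Cre(LID) mouse 2, or the libraries with high Rag1 or Acta1 (0.20 to 0.34, adjusted p up to 0.264). Its parent Rpl36a rose by 0.90, and Rpl36al stood at 99.1% ± 8.70 of the Rpl36a level in WT(LID) and at 67.9% ± 6.39 in Glis3-Pax8Cre(LID) (SD, n = 4). Rps27l rose by 0.33 ± 0.09 (adjusted p = 0.0124), a call lost without WT(LID) mouse 3 (adjusted p = 0.0543) and without the libraries with Acta1 over 100 CPM (adjusted p = 0.136). For Rpl7l1 (0.20, adjusted p = 0.0617), Rps4l (0.35, 0.0683), Rps19bp1 (0.26, 0.0702) and Rpl3l (0.47, 0.735) the test was not passed, whereas the parents Rpl7 (0.71), Rps4x (0.74) and Rpl3 (0.62) rose. Rpl37rt (3.28 ± 0.14 and 4.69 ± 1.3 CPM, SD, n = 4) was called higher and Rpl32l, under 0.4 CPM in every mouse, was not.

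Rpl3l, a paralog of striated muscle, was highest at 7.47 CPM in Glis3-Pax8Cre(ND) mouse 1, 5.63 in WT(LID) mouse 3 and 5.47 in Glis3-Pax8Cre(LID) mouse 2, the 3 libraries with the most Acta1 (569.6, 310 and 298 CPM). Its groups overlapped in every comparison.

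Other markers moved beside the comparison of the LID groups. The summed level of 5 endothelial markers was 1316 to 1488 CPM in WT(LID) and 591 to 754 in Glis3-Pax8Cre(LID), and that of 4 pericyte markers 790 to 1213 and 401 to 616. Of these, 4 of 5 and 4 of 4 were called lower. Of 5 fibroblast markers 2 were called lower, Col1a1 and Col1a2, which carried most of the sum (1062 to 1240 and 366 to 659 CPM), whereas Dcn overlapped (106 to 150 and 87.9 to 148 CPM). Of 7 follicular markers 3 were called higher and 2 lower, with log2 fold changes from -6.92 to 1.39. Of 3 parathyroid markers 1 was called lower, and 1 of 5 adipocyte and 1 of 5 macrophage markers were called higher. The part of all these markers in the ribosomal protein result was not tested. The count of 75 was 72 without the 5 libraries with Rag1 over 5 CPM, 71 without the 5 with Acta1 over 100 CPM and 75 without the library labelled WT(ND) mouse 3. Among other genes with transcripts under 1 kb and at least 50 CPM, 167 in number, the median log2 fold change was 0.12.

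On the normal diet no ribosomal protein gene passed the test. In Glis3-Pax8Cre(ND) against WT(ND), edgeR called 0 of 84 higher and 0 lower, against 10.3% and 9.25% of all genes, and DESeq2 called 4 higher. At an unadjusted p under 0.05, 9 were higher and 1 lower. The median log2 fold change was 0.12, and 76 of 84 were above 0. Without the library labelled WT(ND) mouse 3, 10 were called higher and the median was 0.19. That library stood highest of its group: 82 of 84 genes lay above the group mean in it. Other libraries shifted as a whole too: the number was 83 in Glis3-Pax8Cre(LID) mouse 2, 2 in Glis3-Pax8Cre(LID) mouse 3 and 5 in WT(LID) mouse 2. The genes thus tended to move together within a library, so counts of genes called are not counts of independent results.

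In WT mice, ribosomal protein mRNA was lower on LID in part of the genes. In WT(LID) against WT(ND), 34 of 84 were called lower, against 20.8% of all genes, and 1 was called higher, against 20.9%. The median log2 fold change was -0.24 (all genes -0.03), and in 48 genes all WT(LID) mice lay below all WT(ND) mice, against 23.3% of all genes. By subunit, 18 of 30 small subunit genes and 14 of 42 large subunit genes were called lower. Among called genes of at least 5 CPM with no overlap, the largest falls were in Rps19 (fell by 0.49 ± 0.09, adjusted p = 6.48e-04), Rps27a (0.46 ± 0.11, 0.00466), Rpl22 (0.45 ± 0.08, 3.29e-04), Rplp1 (0.44 ± 0.12, 0.00752) and Rps21 (0.42 ± 0.11, 0.00446). Rps6 fell by 0.24 ± 0.09 (adjusted p = 0.0371), a call lost in 11 of 28 alternatives, among them those without WT(ND) mouse 2 or 3 or WT(LID) mouse 1, 2 or 3 (adjusted p up to 0.235 over the alternatives). Without the library labelled WT(ND) mouse 3, 12 were called lower and the median was -0.17. Without WT(LID) mouse 2 the number was also 12, and without WT(LID) mouse 3 it was 15. Without the libraries with Rag1 over 5 CPM 19 were called lower, and without those with Acta1 over 100 CPM 11. The Rag1 cut left 2 WT(ND) and 3 WT(LID) mice, and the Acta1 cut left 3 of each. Markers of other cells moved in this comparison too. The summed endothelial markers were 488 to 620 CPM in WT(ND) and 1316 to 1488 in WT(LID), with 5 of 5 called higher, and 3 of 4 pericyte markers were called higher. All 3 parathyroid markers were called lower (sums of 3477 to 6005 and 858 to 1676 CPM), as were 4 of 5 adipocyte markers and 2 of 4 C-cell markers. Another C-cell marker, Ret, was called higher. Of 5 macrophage markers 2 were called higher, and of 5 fibroblast markers 2 were called higher and 2 lower. Of 7 follicular markers 3 were called higher and 1 lower, and 1 of 2 cartilage markers tested was called higher. The part of these markers in the result was not tested.

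In Glis3-Pax8Cre mice the diet effect ran upwards. In Glis3-Pax8Cre(LID) against Glis3-Pax8Cre(ND), 40 of 84 were called higher, against 13.1% of all genes, and 0 lower (12.3%; at an unadjusted p under 0.05, 67 higher and 0 lower; DESeq2, 52 and 0). The median log2 fold change was 0.29 (all genes -0.03), and 25 genes did not overlap between the groups, against 11.8%. Among 167 other genes with transcripts under 1 kb and at least 50 CPM, the median was 0.20, nearer to that of the ribosomal protein genes. Rpl37 rose by 0.48 ± 0.10 (adjusted p = 0.00330), Rps28 by 0.48 ± 0.12 (0.00853), Rps19 by 0.45 ± 0.09 (0.00276), Rpl29 by 0.44 ± 0.09 (0.00363), Rpl37a by 0.43 ± 0.11 (0.00958) and Rps6 by 0.37 ± 0.09 (0.00664). Each of these 6 calls was lost without the libraries with Acta1 over 100 CPM, which left 2 Glis3-Pax8Cre(ND) and 3 Glis3-Pax8Cre(LID) mice. The part of the smaller groups in this loss was not tested. Rplp1 had a log2 fold change of 0.00 ± 0.12 (adjusted p = 0.983). This count was the least stable. With the replicate number as a block it was 24, with the block in the 8 Glis3-Pax8Cre mice alone 6, and with those 8 mice alone and no block 8. Without Glis3-Pax8Cre(ND) mouse 2, or Glis3-Pax8Cre(LID) mouse 2, it was 19, and without Glis3-Pax8Cre(LID) mouse 4 it was 25. Without the libraries with Rag1 over 5 CPM it was 13, and without those with Acta1 over 100 CPM it was 0, with a median of 0.18. All 3 parathyroid markers were called lower in this comparison, with sums of 3289 to 5180 CPM in Glis3-Pax8Cre(ND) and 225 to 2099 on LID. Also called lower were 3 of 5 macrophage markers, 1 of 5 endothelial markers, 1 of 4 B cell markers tested and 1 of 4 C-cell markers. Of 7 follicular markers 2 were called higher and 0 lower. Of 5 fibroblast markers 2 were called higher and 1 lower, and 1 of 5 adipocyte markers was called higher. The part of these markers in the result was not tested.

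**Figure D4:**
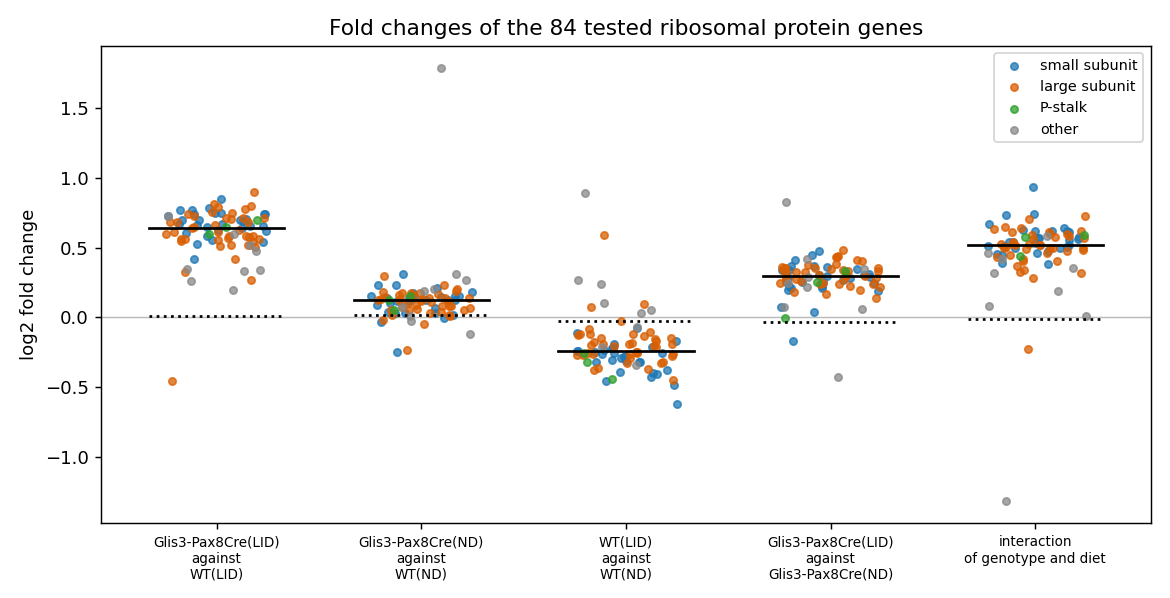
Log2 fold change of each of the 84 tested genes (points, coloured by subunit) in the 4 comparisons and the interaction, with the median of these genes as a solid line and the median of all genes tested as a dotted line. The median of these genes lies above that of all genes in Glis3-Pax8Cre(LID) against WT(LID) (0.64 against 0.01). It lies below that of all genes in WT(LID) against WT(ND) (-0.24 against -0.03), and single genes depart from both.

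The difference between the diet effects of the 2 genotypes was tested as the interaction of genotype and diet. It was called higher, that is more positive in Glis3-Pax8Cre mice, for 54 of 84 genes, against 4.43% of all genes, and lower for 0, against 7.41% (at an unadjusted p under 0.05, 73 and 0; DESeq2, 64 and 0). The median was 0.52 on the log2 scale (all genes -0.01). Rps19, of the small subunit, had the largest value, 0.94 ± 0.13 (adjusted p = 2.76e-04): its values in WT(ND) were 234, 246, 254 and 241 CPM, with 180, 156, 171 and 189 in WT(LID). In the Glis3-Pax8Cre mice it had 198, 207, 213 and 204 CPM on ND and 264, 339, 243 and 276 on LID. Within each genotype its diet groups did not overlap, and they moved in opposite directions. Rps28 (0.74), Rps21 (0.73), Rpl36a (0.72) and Rpl10 (0.70) followed, and these 4 calls were lost without the libraries with Acta1 over 100 CPM, whereas that of Rps19 was not (adjusted p up to 0.0163 over 27 alternatives). The count was 35 without the library labelled WT(ND) mouse 3, 34 and 35 without WT(LID) mouse 2 or 3, 15 without the libraries with Rag1 over 5 CPM and 3 without those with Acta1 over 100 CPM, where the median was 0.34. The Rag1 and Acta1 cuts left 2 or 3 mice in each group, and the part of the smaller groups in these counts was not tested.

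**Figure D5:**
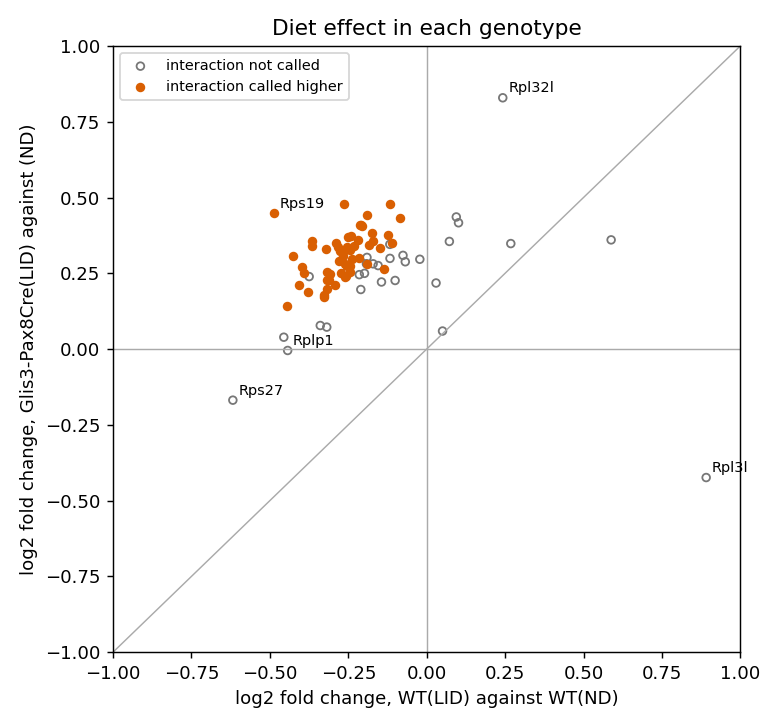
Diet effect of each gene in WT mice (x axis, log2 fold change) against that in Glis3-Pax8Cre mice (y axis, log2 fold change), with genes called in the interaction filled. Most genes lie left of 0 and above 0, with Rps19 farthest from the diagonal among those called.

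Genes with and without the pyrimidine run had close medians. The run was sought on both sides of the start, so this split does not separate mRNAs with and without a TOP tract. The 33 tested genes with a run had a median log2 fold change of 0.61 for Glis3-Pax8Cre(LID) against WT(LID), and the 30 without one had 0.67. In WT(LID) against WT(ND) it was -0.24 in both. These values are a description, and their difference was not tested.

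Other genes of translation moved alongside in the same comparison. Of 16 further genes whose mRNAs carry a TOP tract, 15 rose in Glis3-Pax8Cre(LID) against WT(LID) (median 0.60), against 14.9% of all genes, among them Pabpc1, which binds poly(A) (1.60), Tpt1 (1.00) and the elongation factor subunit Eef1b2 (0.96), and 9 fell in WT(LID) against WT(ND), against 20.8%. In Glis3-Pax8Cre(ND) against WT(ND), 4 of these 16 were called higher and 0 lower, against 10.3% and 9.25% of all genes. Their median was 0.15 and their largest log2 fold change 1.22. All 4 ribosomal proteins with other names rose in Glis3-Pax8Cre(LID) against WT(LID), including Rack1 (0.76) and Rpsa (0.54). Of 78 genes of the mitochondrial ribosome, 24 rose and 0 fell in Glis3-Pax8Cre(LID) against WT(LID), against 14.9% and 15.4% of all genes, with a median of 0.20.

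Some of the listed regulators were called in the comparison of the LID groups, where 14.9% of all genes were called higher and 15.4% lower. Whether their counts differed from these shares was not tested. Of 23 genes of mTOR and S6 kinase signalling, 4 rose in Glis3-Pax8Cre(LID) against WT(LID), led by Pdcd4, a substrate of the S6 kinases (1.19, adjusted p = 2.20e-07), and Sesn2 (0.56), and 1, Ddit4, fell by 0.60 (adjusted p = 0.0223), with a median of -0.05. Of 10 tested genes of factors named at ribosomal protein promoters, 0 rose and 2 fell, E2f1 by 0.61 (adjusted p = 0.0268) and Max by 0.57.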

How the data were processed

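RNA-Seq was done on thyroid glands of 16 mice. The authors aligned reads to mm10 with STAR (2.5) and deposited raw counts per RefSeq gene from featureCounts (1.5.0-p1), run without strand, so antisense and overlapping genes were not separated. Which sequencer each library was run on was not given in the sources used here.

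Counts were tested with edgeR 4.0.16 (R 4.3.3): TMM scaling, filterByExpr, a robust quasi-likelihood fit of all 4 groups, and Benjamini-Hochberg adjustment over 16630 genes. CPM uses TMM-scaled library sizes. The script was tested on simulated data. Replicates of a group differed beyond counting noise (chi-square per degree of freedom at least 33.0 in 24 pairs).

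Deviations of mice with the same replicate number correlated in every pair only between the Glis3-Pax8Cre groups (0.25 to 0.68), and the labels state no pairing. The highest pair, mouse 4, held Rag1 at 1120 CPM on ND and 145 on LID. The part of such thymocyte RNA in the correlations was not tested. In the other group pairs the correlations ran from -0.49 to 0.19.

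Some genes are counted but not reported here by name or value. Named genes were the 10 highest per kb, up to 5 called each way per comparison with at least 5 CPM and no overlap (not asked of the interaction), and all genes of the stalk, Rpl5 and Rpl11, paralogs with parents, and Rps6. Genes and lists were chosen with earlier results of these data known. The cuts on Rag1 and Acta1 were chosen after seeing the data. For Acta1 a cut of 90 CPM was run first by mistake, where 100 had been noted, and both are reported. Alternatives included DESeq2 1.42.0.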

Additional observations from a re-analysis of the deposited data

Results flagged for a closer look

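The effect of the diet differed between the genotypes by the interaction test in edgeR for 54 of 84 genes, each more positive in Glis3-Pax8Cre mice, against 4.43% of all genes. The number was 15 without the libraries with Rag1 over 5 CPM and 3 without those with Acta1 over 100 CPM. These cuts left 2 or 3 mice in each group. The values on the log2 scale were 0.94 for Rps19, 0.74 for Rps28, 0.73 for Rps21, 0.72 for Rpl36a and 0.70 for Rpl10.

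Single mice stood apart from the other 3 of their group, by Dixon's test at the 95% level, in 8 of the 116 groups examined, where chance gives about 1 in 20. In WT(ND) mouse 3, Rplp1 was at 551 CPM and Rps21 at 216 CPM. In WT(LID) mouse 2, Rpl3 was at 383 CPM and Rps4x at 340 CPM. The others were Rpl22 at 198 CPM in Glis3-Pax8Cre(LID) mouse 3, Rpl36a at 138 CPM in Glis3-Pax8Cre(ND) mouse 3, Rpl7l1 at 87.2 CPM in WT(LID) mouse 4 and Rps19bp1 at 19.7 CPM in Glis3-Pax8Cre(LID) mouse 2.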

How the results depend on the processing

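The rise in Glis3-Pax8Cre(LID) against WT(LID) held under every alternative at an adjusted p under 0.05, including each mouse left out (71 to 77 called higher, median 0.57 to 0.70). The other comparisons depended on single libraries. With each mouse left out in turn, Glis3-Pax8Cre(ND) against WT(ND) gave 0 to 10 higher and 0 to 1 lower, WT(LID) against WT(ND) 12 to 44 lower, Glis3-Pax8Cre(LID) against Glis3-Pax8Cre(ND) 19 to 54 higher, and the interaction 34 to 61 higher. The cause was not tested. At adjusted p under 0.01 and more than 2-fold, 0 genes were called in any comparison.

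With library size alone, which moved the median of all genes to 0.16, 0.14, -0.18 and -0.17 in the 4 comparisons, the medians were 0.79 in Glis3-Pax8Cre(LID) against WT(LID) (0 lower), 0.25 in Glis3-Pax8Cre(ND) against WT(ND) (5 higher), -0.40 in WT(LID) against WT(ND) (58 lower) and 0.16 in Glis3-Pax8Cre(LID) against Glis3-Pax8Cre(ND) (1 higher), and the interaction was called for 31. DESeq2 called 4 higher in Glis3-Pax8Cre(ND) against WT(ND).

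For Glis3-Pax8Cre(LID) against Glis3-Pax8Cre(ND), the replicate block gave 24 higher, the block in the 8 Glis3-Pax8Cre mice alone 6, and those mice without a block 8. The block moved no other count by more than 1.5 times.

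Sets of libraries were left out after seeing the data: those with Acta1 over 100 CPM or over 90 CPM, those with Rag1 over 5 CPM, and the deepest with the shallowest. The cut at 100 CPM left 2 Glis3-Pax8Cre(ND) mice and 3 in each other group. The Rag1 cut left 2 WT(ND) mice and 3 in each other group. The part of the smaller groups in the lower counts was not tested. Without Acta1 over 100 CPM, Glis3-Pax8Cre(ND) against WT(ND) gave 5 higher, WT(LID) against WT(ND) 11 lower, Glis3-Pax8Cre(LID) against Glis3-Pax8Cre(ND) 0 higher, and the interaction 3 (median 0.34). The cut at 90 CPM, which left 1 Glis3-Pax8Cre(ND) mouse assumed to vary like the other groups, gave 3, 16, 0 (median 0.18) and 1 (median 0.35). Without Rag1 over 5 CPM the last 3 were 19, 13 and 15. Without the deepest and the shallowest library WT(LID) against WT(ND) gave 20 lower and Glis3-Pax8Cre(LID) against Glis3-Pax8Cre(ND) 24 higher.

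Among the named genes, in the comparisons in which each was recomputed, those whose sign turned had not passed the test. In WT(LID) against WT(ND), library size alone gave Rpl7l1 -0.11 and Rps19bp1 -0.13, the Acta1 cuts at 100 and 90 CPM gave Rps27l 0.016 and 0.015, the Rag1 cut gave Rpl3l -0.87, and leaving out the deepest and shallowest library gave Rpl7l1 -0.022. In Glis3-Pax8Cre(LID) against Glis3-Pax8Cre(ND), library size alone gave Rpl22l1 -0.047 and Rpl7l1 -0.073, the cut at 100 CPM gave Rpl22l1 -0.027 and Rpl3l 0.12, the cut at 90 CPM gave Rpl22l1 -0.25, Rpl36al -0.0051, Rpl7l1 -0.023 and Rpl3l 0.56, and leaving out the deepest and shallowest library gave Rplp1 0.043 and Rpl3l 0.060. Over single mice left out, Rpl3l ran from -0.033 to 1.66, -0.30 to 2.10 and -0.93 to 0.061 in Glis3-Pax8Cre(LID) against WT(LID), WT(LID) against WT(ND) and Glis3-Pax8Cre(LID) against Glis3-Pax8Cre(ND), Rpl7l1 from -0.019 to 0.10 in WT(LID) against WT(ND), and Rplp1 from -0.13 to 0.055 in Glis3-Pax8Cre(LID) against Glis3-Pax8Cre(ND).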
